A study of Homo sapiens with 6 samples.

Results

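Long intergenic noncoding RNAs (symbols that begin with LINC) and antisense RNAs (symbols that end in -AS and a number) were followed in T47D cells, a human cell line from a luminal A breast cancer, after an siRNA against the transcription factor ELF5. The members were selected on their symbol and on a mean of at least 50 normalised reads over the 6 libraries, a rule that used the overall level and not the difference between groups. It took 416 RNAs, 129 LINC and 287 antisense, of 1863 such symbols (884 LINC and 979 antisense) among 26364 genes in the table. Of the others, 548 were at 0 in all libraries, 628 had a mean above 0 and under 10, and 271 had a mean from 10 to under 50. Just outside the threshold lay LINC00160 (49.9) and ACVR2B-AS1 (49.97), and just inside it PLS3-AS1 (50.6) and LINC00504 (51.9).

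Control cells (siNC) received the Ambion siRNA 4390846 and the other group (siELF5) the Ambion siRNA AM16708. RNA was taken 48 h later, total RNA was extracted with TRIzol, and the TruSeq RNA kit v2, which does not mark strand, gave 3 libraries per group. Each group received 1 siRNA product, so every difference compares those products as well as their targets. Nothing in the labels says that the libraries of a group came from separate cultures, so p-values rest on the spread among 3 libraries a group, and this may be technical only. ELF5 itself had 13225, 13148 and 12910.2 normalised reads in siNC and 3678, 3725 and 3638 in siELF5, 28.1% of the control mean (log2 fold change -1.83, adjusted p = 3.3e-12).

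Long noncoding RNAs are made by the same polymerase as messenger RNAs and are usually capped, spliced and polyadenylated, but they carry no long reading frame. Some work as RNAs, for example as scaffolds for proteins or as decoys, and for others the act of transcription or the DNA element under it is what matters for neighbouring genes. Antisense symbols cover different arrangements: RNAs whose exons lie across from exons of the sense gene, RNAs inside its introns, and divergent RNAs that start beside its promoter and run the other way. With libraries that do not mark strand, reads from exons shared by both strands cannot be told apart. Such RNAs are lower in read number than messenger RNAs on the whole, and the members' median mean was 216 normalised reads against 2157 over all 13806 genes at or above that level, or 119.5 against 612 per kilobase of transcript.

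Libraries held 66.8 M to 83.7 M reads and 18767 to 19194 genes with a read. All 8 luminal markers had means of 14908 or more, while the endothelial markers PECAM1 and CDH5 and the leukocyte markers PTPRC and CD3E had means between 0.615 and 1.71. Of the basal and fibroblast markers, KRT5, KRT14, COL1A2 and PDGFRB had means between 2.21 and 9.95, the leukocyte marker CD14 had 19.9, TP63 182, ACTA2 548 and COL1A1 4061. The groups differed in how GC-rich genes stood against others: a GC score of each library (the median deviation of the most GC-rich class of genes from their means minus that of a middle class) was -0.39, -0.22 and -0.07 in siNC and 0.22, 0.27 and 0.22 in siELF5. The groups did not overlap in this score, and its part in the differences below was not tested. Of the 73 genes chosen by the naming rule, 58 passed the test. With the score as a covariate 31 of these no longer passed and 4 changed sign, while the median SE over the members went from 0.135 to 0.348. After a correction of each gene for its GC content, 4 no longer passed.

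ELF5 is an ETS factor, a family that binds DNA around a GGAA core, so the promoters of 3 members are shown here for what they hold of 2 core motifs of the family, CGGAAGT and AGGAAGT, searched on both strands (capitals, as their complements ACTTCCG or ACTTCCT where they lie on the other strand). The windows hold 300 bases each, from RefSeq on GRCh38.p14, 5′ to 3′ on the strand of the RNA. LINC01016 had the largest change of any member and no such motif in this window. LINC00641 had 1 of the largest decreases and has 1 motif. SRP14-AS1, which starts beside SRP14 and runs the other way, rose while SRP14 fell and has 2 motifs. These 3 were picked without a rule, SRP14-AS1 after its values were seen. Among the other largest LINC decreases, LINC00152 has 1 motif, while LINC00312, LINC00673, LINC00885, LINC01176, LINC01508 and LINC01578 have none. Of the largest antisense increases with a promoter to search, FOXD3-AS1, GAS6-AS2, GATA2-AS1, JHDM1D-AS1 and LPP-AS2 have none.
LINC01016 (chr6:33896858-33897157, minus strand): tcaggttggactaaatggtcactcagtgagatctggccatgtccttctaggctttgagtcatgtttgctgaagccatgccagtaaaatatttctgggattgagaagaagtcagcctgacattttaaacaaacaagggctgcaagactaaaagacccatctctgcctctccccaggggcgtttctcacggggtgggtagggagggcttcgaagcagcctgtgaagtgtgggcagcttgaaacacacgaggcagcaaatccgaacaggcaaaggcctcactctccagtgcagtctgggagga
LINC00641 (chr14:21206851-21207150, minus strand): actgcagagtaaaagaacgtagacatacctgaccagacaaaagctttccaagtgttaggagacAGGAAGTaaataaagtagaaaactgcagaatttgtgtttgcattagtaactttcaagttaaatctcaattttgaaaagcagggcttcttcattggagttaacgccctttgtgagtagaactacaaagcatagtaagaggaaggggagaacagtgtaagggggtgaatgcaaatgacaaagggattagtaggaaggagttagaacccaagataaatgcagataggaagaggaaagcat
SRP14-AS1 (chr15:40039061-40039360, plus strand, named SRP14-DT in RefSeq): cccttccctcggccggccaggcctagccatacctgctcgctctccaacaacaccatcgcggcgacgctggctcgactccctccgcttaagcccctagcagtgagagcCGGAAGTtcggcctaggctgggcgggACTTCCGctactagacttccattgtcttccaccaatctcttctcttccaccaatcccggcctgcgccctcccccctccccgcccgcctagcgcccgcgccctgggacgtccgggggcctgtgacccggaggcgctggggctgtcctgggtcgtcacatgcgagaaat

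Over all 35116 promoters of this length, 14.4% held at least 1 of the motifs, and so did 15.6% of the 314 members with a promoter in the table. The share was 21.4% (9 of 42) in antisense RNAs that rose, 4.76% (1 of 21) in those that fell and 14.6% (23 of 158) in those that did not pass the test. In LINC RNAs it was 13.3% (2 of 15) in those that rose, 26.3% (5 of 19) in those that fell and 15.3% (9 of 59) in the rest. These shares are descriptions of the letters in the windows, without a test.

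A second set of sequences shows a 7-base motif within the RNAs themselves, CACTAAC or ACTAACA (these overlap in CACTAACA), which earlier results of these data had picked out in messenger RNAs, so it is no independent evidence here. The windows are shown for 5 members that carry it, the first 3 lower and the last 2 higher in siELF5, read 5′ to 3′ from the GENCODE 29 transcript with the motif in capitals.
LINC00657: gagttagtaaACTAACAcattttgtac
LINC01578: aaagatggcaCACTAACccagataata
LINC01508: taccatgacaACTAACAgctttataaa
FGD5-AS1: gaccagcctgACTAACAtggtaaaacc
LPP-AS2: tctctttgcaACTAACAtagtttgaaa

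Among LINC RNAs whose transcript could be searched, 18 held the motif, of which 3 were higher and 7 lower in siELF5, and 100 did not, of which 16 were higher and 14 lower. Among antisense RNAs, 29 held it, with 2 higher and 1 lower, and 252 did not, with 48 higher and 24 lower. Over all genes tested, 2741 transcripts held it, with 437 higher and 984 lower, and 12667 did not, with 3303 higher and 2691 lower. The median log2 fold change was -0.16 in LINC RNAs with the motif and 0.09 in those without, against -0.07 and 0.02 over all genes. In antisense RNAs it was 0.03 with the motif and 0.07 without. Whether the classes differ in this was not tested.

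Of the 129 LINC RNAs, 21 were higher and 24 lower in siELF5 and 84 did not pass the test. Of the 287 antisense RNAs, 51 were higher and 27 lower and 209 did not pass. This is 34.9% of LINC and 27.2% of antisense RNAs, against 52.2% of all genes with a mean of at least 50 (25.8% higher and 26.3% lower) and 47.1% of all genes tested (23.8% higher and 23.3% lower). The test was limma on log2(value + 1) of the normalised reads of all genes, two-sided, with Benjamini-Hochberg adjustment over 16032 genes and a threshold of 0.05, and the fold changes below are on this scale, which understates those of low genes. Median log2 fold changes (siELF5 minus siNC) were 0.04 for LINC and 0.07 for antisense RNAs, against 0.00 over all genes tested. With quantile scaling these medians were -0.09 and -0.06, and with the GC score as a covariate that of LINC RNAs was -0.04.

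Groups did not overlap in 48.1% of LINC and 41.1% of antisense RNAs, against 55.9% of all genes tested and 60.5% of those averaging 50 reads or more. Only 7 members changed by at least 2-fold, of which 1 LINC and 5 antisense RNAs were called higher and 1 LINC RNA lower, while calls of that size made up 2.8% of the genes with a mean of at least 50. After correction of each gene for its GC content, 22 LINC RNAs were higher and 22 lower and 58 antisense RNAs higher and 30 lower, beside 53.4% of genes with a mean of at least 50 called (25.6% higher and 27.8% lower). With the GC score in the fit, a term that overlaps with the group term and gives larger SEs, 1 LINC RNA was higher and 6 lower and 7 antisense RNAs were higher and 4 lower, beside 8.25% of those genes (3.61% higher and 4.64% lower). The excess of higher over lower antisense RNAs depended on the scaling, and the calls over all genes tested moved in the same directions. Quantile scaling gave 27 higher and 49 lower antisense RNAs, 13 and 34 LINC RNAs, and 3459 and 3984 of all genes. Equal column totals gave 59 and 21 antisense RNAs, 25 and 19 LINC RNAs, and 4380 and 3132 of all genes. Without siELF5 replicate 1 the higher antisense RNAs numbered 32, and 3143 of all genes were higher.

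**Figure D1:**
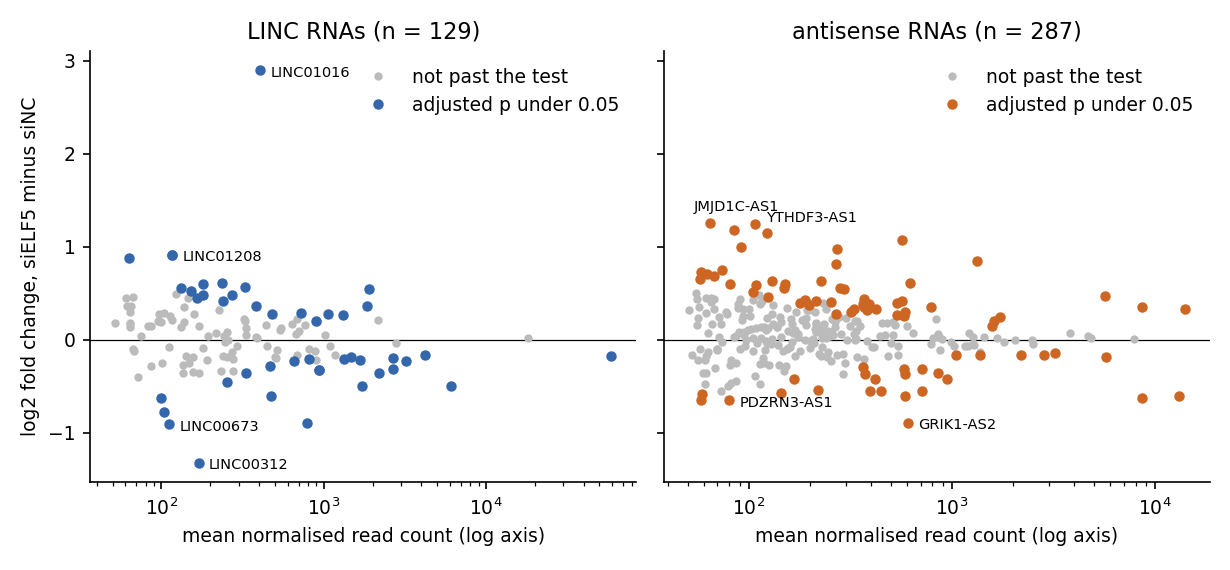
Log2 fold change (siELF5 minus siNC, vertical axis) against the mean normalised read count over 6 libraries (log axis) for 129 LINC RNAs (left) and 287 antisense RNAs (right), with RNAs at an adjusted p under 0.05 in colour. LINC01016 stands alone at 2.89, and of the called RNAs with 1000 reads or more JHDM1D-AS1 lies farthest from 0, at 0.84.

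The members' calls followed their read number. Of members with a mean from 50 to under 200, 22.2% of 54 LINC and 17.2% of 145 antisense RNAs were called, against 31.5% of 1855 genes in that range. From 200 to under 1000 reads the shares were 33.3% of 54 LINC and 34.9% of 109 antisense RNAs against 45.8% of 2750 genes. At 1000 reads or more they were 71.4% of 21 LINC RNAs and 45.5% of 33 antisense RNAs against 58.3% of 9201 genes. In the lowest range most calls were increases: 8 higher and 4 lower for LINC, 20 and 5 for antisense RNAs, and 449 and 136 over all genes. In the highest range LINC RNAs were mostly lower, 11 against 4 higher, while antisense RNAs divided into 7 higher and 8 lower.

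**Figure D2:**
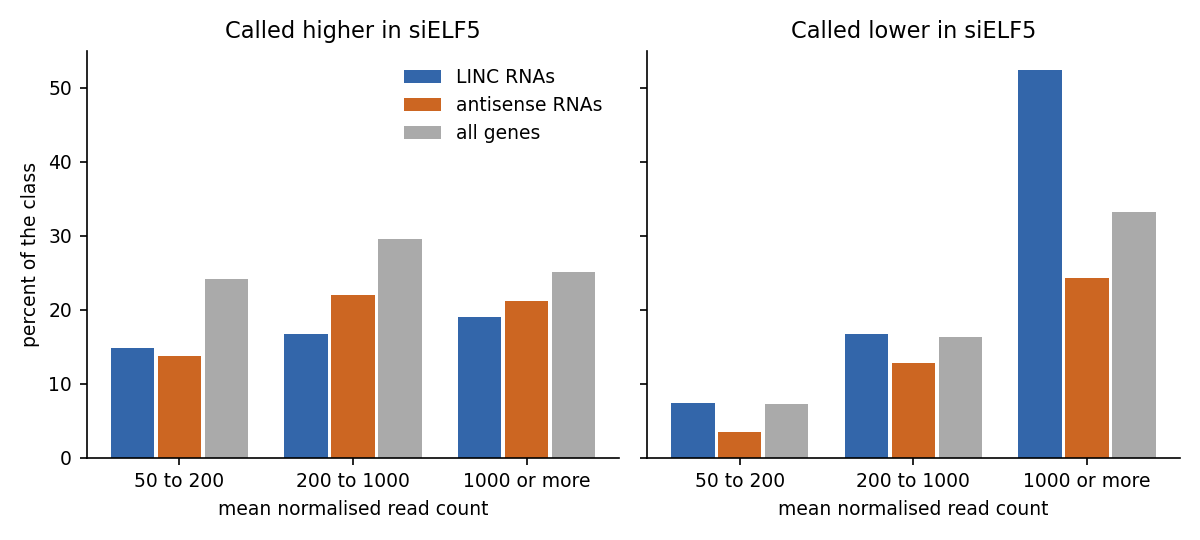
Percent of LINC RNAs, antisense RNAs and all genes called higher (left) or lower (right) in siELF5, in 3 ranges of the mean normalised read count. In the range of 1000 or more, 52.4% of LINC RNAs were called lower, against 24.2% of antisense RNAs and 33.2% of all genes.

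LINC01016, an RNA reported as a target of the estrogen receptor in breast cancer cells, rose more than any other member. It had 86.2, 103 and 98.2 normalised reads in siNC and 705, 707 and 740.5 in siELF5. The groups lay far apart, with means of 95.9 ± 8.75 in siNC and 718 ± 19.6 in siELF5 (SD, n = 3 each; log2 fold change 2.89, SE 0.112, adjusted p = 1.60e-09), 748% of the control mean. It was the one LINC RNA that stayed higher with the GC score as a covariate, at 2.64 (adjusted p = 1.66e-05). In GENCODE 29 it shares no exon base with another gene.

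Among the other LINC RNAs that rose, LINC00565, named SWINGN in RefSeq for an enhancer of GAS6, had 94.3, 73.8 and 74.9 reads in siNC and 146, 163 and 148 in siELF5 (log2 fold change 0.91, SE 0.165, adjusted p = 0.000617). GAS6, a ligand of the TAM receptor kinases, and its divergent RNA GAS6-AS2 rose as well, with values given below. LINC01208 had 85.1, 63.6 and 94.1 reads in siNC and 152, 146 and 156 in siELF5 (log2 fold change 0.91, adjusted p = 0.00102). LINC01132 had 41.4, 50.7 and 40.5 in siNC and 72.4, 78.5 and 96.5 in siELF5 (log2 fold change 0.88, adjusted p = 0.00465). The siNC mean of LINC01132 was under 50, so it became a member only through siELF5. For each of these 3 LINC RNAs every siELF5 library lay above every siNC library. LINC00565, LINC01208 and LINC01132 did not pass with the GC score in the fit, at log2 fold changes of 1.33, 0.77 and 0.93 and adjusted p of 0.079, 0.39 and 0.415.

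LINC01021 (PURPL), an RNA induced by p53 that holds p53 levels down, had 140.3, 136 and 154 reads in siNC and 237, 203 and 215 in siELF5 (log2 fold change 0.60, adjusted p = 0.00219). LINC00467 had the smallest adjusted p of the increases after LINC01016: 1458, 1686 and 1532 reads in siNC and 2311, 2336 and 2142 in siELF5 (log2 fold change 0.54, SE 0.0616, adjusted p = 1.63e-05), with no overlap between groups. LINC01021, LINC00467 and LINC00341 did not pass with the GC score in the fit, at log2 fold changes of 0.47, 0.41 and 0.45 and adjusted p of 0.509, 0.118 and 0.472. The symbol LINC00341 (log2 fold change 0.61, adjusted p = 0.000975) now stands for SYNE3, a coding gene with a row of its own in the table, so its reads are of uncertain assignment. LINC00176 had 82.8, 109.7 and 131 reads in siNC and 168, 133 and 169 in siELF5 (log2 fold change 0.56, adjusted p = 0.0269), and this call depended on single libraries: without siNC replicate 1 the log2 fold change was 0.38 (adjusted p = 0.101), without siNC replicate 2 0.58 (adjusted p = 0.0569), without siELF5 replicate 1 0.50 (adjusted p = 0.0944) and without siELF5 replicate 3 0.50 (adjusted p = 0.0847). LINC00176, listed in RefSeq as the coding gene C20orf204, has 62.3% GC. It did not pass after GC correction (0.32, adjusted p = 0.131) and was -0.25 (adjusted p = 0.815) with the GC score.

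LINC00312 fell most. It had 269, 239 and 219.6 reads in siNC and 94.2, 114 and 82.2 in siELF5 (log2 fold change -1.32, SE 0.158, adjusted p = 2.36e-05), 39.9% of the control mean. LINC00673 had 129.9, 143 and 163 reads in siNC and 79.7, 70.7 and 79.1 in siELF5 (log2 fold change -0.91, adjusted p = 0.000595), and LINC01176 124, 125 and 144 in siNC and 87.8, 63.8 and 78.1 in siELF5 (log2 fold change -0.78, adjusted p = 0.00308). In each of these 3 the siELF5 libraries lay below all siNC libraries. LINC01508 had 123, 135 and 104 reads in siNC and 80.6, 69.7 and 82.2 in siELF5 (log2 fold change -0.63, adjusted p = 0.0102), and -0.55 (adjusted p = 0.0539) without siNC replicate 2. LINC00312, LINC00673, LINC01176 and LINC01508 did not pass with the GC score in the fit, at log2 fold changes of -1.03, -1.31, -0.95 and -0.25 and adjusted p of 0.154, 0.0888, 0.281 and 0.829.

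The falling LINC RNAs with more reads were measured more closely. LINC00641 had 1041, 1102 and 955 reads in siNC and 503, 583 and 576 in siELF5, with means of 1033 ± 73.7 in siNC and 554 ± 44.5 in siELF5 (SD, n = 3 each; log2 fold change -0.90, SE 0.083, adjusted p = 2.75e-06). LINC01578 (CHASERR), which lies beside CHD2 and is known to hold that gene's expression down, had 7027, 7195 and 7065 reads in siNC and 5344, 5013 and 4738 in siELF5 (log2 fold change -0.50, SE 0.0437, adjusted p = 1.74e-06). LINC00885 had 1959, 1989 and 2099 reads in siNC and 1389, 1335 and 1546 in siELF5 (log2 fold change -0.50, adjusted p = 2.96e-05). These 3 remained lower with the GC score as a covariate, at -0.77 (adjusted p = 0.0309), -0.51 (adjusted p = 0.00629) and -0.60 (adjusted p = 0.0221). LINC00152 (CYTOR), an RNA tied to the cytoskeleton and raised in many tumours, had 538, 594 and 571 reads in siNC and 395, 332 and 393 in siELF5 (log2 fold change -0.61, adjusted p = 0.000219), with no overlap between groups. LINC00152 did not pass in that fit, at -0.65 (adjusted p = 0.135).

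LINC00657 (NORAD), an abundant cytoplasmic RNA that binds Pumilio proteins and is known for its role in genome stability, took the most reads of all members. It had 64125, 62916 and 61825 reads in siNC and 55893, 58056 and 53498 in siELF5. The fall was small but larger than the spread (log2 fold change -0.17, SE 0.0328, adjusted p = 0.000799), with no overlap between groups. LINC00674, the second in read number, had 18558, 18046 and 17586 reads in siNC and 18177, 18289 and 18260.1 in siELF5, and its groups overlapped (log2 fold change 0.01, SE 0.0301, adjusted p = 0.724), though after GC correction it was 0.06 (adjusted p = 0.0458). LINC01000 had 4175, 4585 and 4627 reads in siNC and 3701, 3779.9 and 4444 in siELF5 with overlapping groups (log2 fold change -0.17, adjusted p = 0.0462). That call was lost without siNC replicate 2 (-0.15), siNC replicate 3 (-0.14), siELF5 replicate 1 (-0.12) or siELF5 replicate 2 (-0.14), with adjusted p of 0.153, 0.105, 0.196 and 0.167. Per kilobase of transcript, LINC00674 stood highest, with 26774 reads per kb on a transcript model of 678 bases, before LINC00657 with 11123. LINC00657 and LINC01000 did not pass with the GC score in the fit, at log2 fold changes of -0.13 and -0.35 and adjusted p of 0.422 and 0.176.

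Of the LINC RNAs with a described role that were looked up by name, LINC-PINT, a p53-responsive RNA, had 105, 132 and 89.1 reads in siNC and 129, 116 and 128 in siELF5 (log2 fold change 0.21, adjusted p = 0.353), and LINC00472 467, 452 and 453 in siNC and 380.4, 456 and 476 in siELF5 (log2 fold change -0.07, adjusted p = 0.592). Neither passed the test, and their groups overlapped. LINC00511, LINC01087 and MAPT-AS1 were no members.

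**Figure D3:**
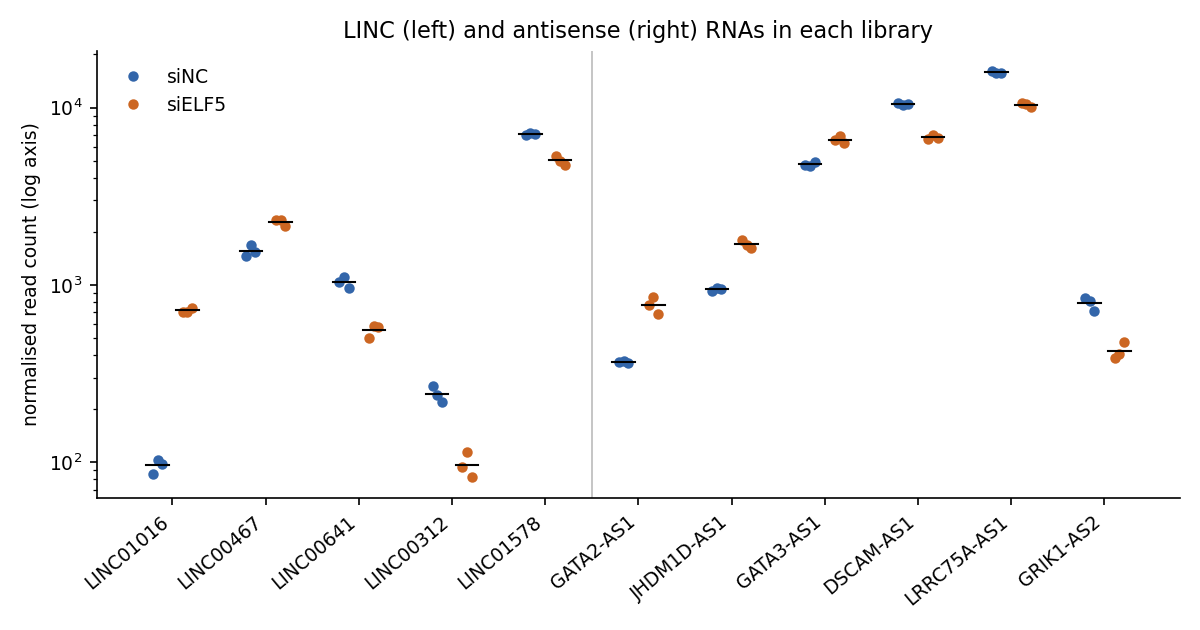
Normalised read count (log axis) in each library for 5 LINC RNAs (left of the line) and 6 antisense RNAs (right), with siNC in blue, siELF5 in orange and the mean as a bar. The groups do not overlap in any of the 11 RNAs, and LINC01016 moves from 95.9 to 718.

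Of the antisense RNAs that rose, GATA2-AS1 had 366, 369.8 and 364 reads in siNC and 774, 854 and 689 in siELF5, with means of 367 ± 2.86 in siNC and 772 ± 82.3 in siELF5 (SD, n = 3 each; log2 fold change 1.07, SE 0.0908, adjusted p = 1.32e-06). GATA3-AS1, whose body overlaps that of GATA3, the luminal lineage factor, without shared exons, had 4743, 4682 and 4901 reads in siNC and 6560.3, 6912 and 6309 in siELF5 (log2 fold change 0.46, SE 0.0411, adjusted p = 1.86e-06). FOXD3-AS1 had 67.8, 68.2 and 92.1 reads in siNC and 182, 190.4 and 136 in siELF5 (log2 fold change 1.14, adjusted p = 0.000322), while FOXD3 had a mean under 10. In all 3 every siELF5 library lay above every siNC library, and GATA2-AS1 and GATA3-AS1 remained higher with the GC score, at 1.00 (adjusted p = 0.013) and 0.37 (adjusted p = 0.032). FOXD3-AS1 did not pass in that fit, at 0.47 (adjusted p = 0.636).

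TBX2-AS1 had 41.4, 47 and 64.8 reads in siNC and 113, 154 and 87.3 in siELF5 (log2 fold change 1.18, adjusted p = 0.00161). It has 69.0% GC, and after GC correction its log2 fold change was 0.31 (adjusted p = 0.24). JHDM1D-AS1 (KDM7A-DT), which belongs to the gene of a histone demethylase, had 919.9, 967 and 946 reads in siNC and 1798, 1676 and 1617 in siELF5 (log2 fold change 0.84, SE 0.0599, adjusted p = 2.65e-07) and 0.79 (adjusted p = 0.00359) with the GC score. YTHDF3-AS1 had 57.5, 68.2 and 64.8 reads in siNC and 167, 147 and 142 in siELF5 (log2 fold change 1.24, adjusted p = 6.23e-05), and JMJD1C-AS1 29.9, 50.7 and 34.4 in siNC and 81.5, 107 and 84.2 in siELF5 (log2 fold change 1.25, adjusted p = 0.00109). JMJD1C-AS1 has 63.9% GC and was 0.90 (adjusted p = 0.00607) after GC correction. The siNC mean of JMJD1C-AS1 was under 50, so it became a member only through siELF5. LPP-AS2 had 168, 221 and 196 reads in siNC and 365, 363 and 301 in siELF5 (log2 fold change 0.81, adjusted p = 0.000275). Groups were apart in each of these RNAs. TBX2-AS1, YTHDF3-AS1, JMJD1C-AS1 and LPP-AS2 did not pass with the GC score in the fit, at log2 fold changes of 0.12, 1.02, 0.82 and 0.44 and adjusted p of 0.938, 0.224, 0.529 and 0.5.

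Of the antisense RNAs that fell, DSCAM-AS1 is an RNA of luminal, estrogen receptor positive breast cancer. It had 10666, 10273 and 10462 reads in siNC and 6620.0, 7027 and 6734 in siELF5, 64.9% of the control mean (log2 fold change -0.62, SE 0.0349, adjusted p = 3.64e-08). LRRC75A-AS1 (SNHG29), which holds the small nucleolar RNA genes SNORD49A, SNORD49B and SNORD65, had 16061, 15674 and 15664 reads in siNC and 10588, 10467 and 10113 in siELF5 (log2 fold change -0.60, SE 0.0314, adjusted p = 1.82e-08). With the GC score as a covariate their log2 fold changes were -0.61 (adjusted p = 0.000279) and -0.56 (adjusted p = 0.000222). GRIK1-AS2, within the locus of a glutamate receptor subunit, fell most, with 838, 814 and 711 reads in siNC and 387, 406 and 476 in siELF5 (log2 fold change -0.90, SE 0.0979, adjusted p = 1.12e-05). GRIK1-AS2 did not pass with the score, at -0.55 (adjusted p = 0.179).

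CBR3-AS1 had 701, 673 and 756 reads in siNC and 454, 478 and 461 in siELF5 (log2 fold change -0.61, adjusted p = 4.60e-05). PDZRN3-AS1, ARHGEF26-AS1, ZNF341-AS1 and TTC39A-AS1 were lower at log2 fold changes of -0.65, -0.65, -0.58 and -0.57, with adjusted p of 0.018, 0.0206, 0.0411 and 0.0121. These 4 calls were lost when single libraries were left out. PDZRN3-AS1 was -0.57 without siNC replicate 1 (adjusted p = 0.065), -0.58 without siNC replicate 2 (adjusted p = 0.0754) and -0.58 without siELF5 replicate 2 (adjusted p = 0.0635). ARHGEF26-AS1 was -0.60 without siNC replicate 3 (adjusted p = 0.0656) and -0.59 without siELF5 replicate 1 (adjusted p = 0.0644), and TTC39A-AS1 -0.44 without siELF5 replicate 1 (adjusted p = 0.0575). ZNF341-AS1 was -0.50 without siNC replicate 1 (adjusted p = 0.132), -0.54 without siNC replicate 2 (adjusted p = 0.115), -0.52 without siELF5 replicate 1 (adjusted p = 0.114) and -0.59 without siELF5 replicate 2 (adjusted p = 0.0798). PDZRN3-AS1, ARHGEF26-AS1, ZNF341-AS1 and TTC39A-AS1 did not pass with the GC score in the fit, at log2 fold changes of 0.07, -0.77, -0.06 and -1.02 and adjusted p of 0.961, 0.509, 0.969 and 0.17.

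FGD5-AS1 took the most reads of the antisense RNAs, 12422, 12346 and 12486 in siNC and 15786, 15679.7 and 15327 in siELF5 (log2 fold change 0.33, SE 0.0292, adjusted p = 1.95e-06). FAM83H-AS1, listed in RefSeq as the coding gene IQANK1, had 7371, 7759.8 and 7505 reads in siNC and 9521, 9475 and 9835 in siELF5 (log2 fold change 0.35, SE 0.0342, adjusted p = 4.54e-06). Both rose with no overlap between groups. OIP5-AS1, known as Cyrano and for a conserved site that binds miR-7, had 7688, 7834 and 7982 reads in siNC and 7889.7, 8085 and 7603 in siELF5, and its groups overlapped (log2 fold change 0.00, adjusted p = 0.936). TMPO-AS1 rose slightly (log2 fold change 0.20, adjusted p = 0.00651). TMPO-AS1 did not pass with the GC score, at 0.14 (adjusted p = 0.632). ZEB1-AS1, HOXC-AS1, PCBP1-AS1 and EIF3J-AS1 did not pass, at log2 fold changes of 0.33, 0.22, -0.27 and -0.03, though ZEB1-AS1 passed after GC correction (0.37, adjusted p = 0.0398).

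Each antisense RNA was then set beside the gene in its symbol. For 274 of the 287 both had a mean of at least 10. Both were higher in 17 pairs and both lower in 10. They were called in opposite directions in 19 (13 with the antisense RNA higher, 6 with it lower). Only the antisense RNA was called in 28, only the sense gene in 101 and neither in 99. Over all 446 pairs with both means at least 10, which include these, 25 were both higher, 12 both lower and 24 opposite. There the antisense RNA alone was called in 31, the sense gene alone in 182 and neither in 172. The sense gene was called in 147 of the 274 member pairs. Of all genes tested 47.1% were called, and 52.2% of those with a mean of at least 50. Pearson's r between the fold changes of the 2 partners was 0.22 (Spearman's rho 0.14) over 274 pairs that share libraries and, in part, reads and base composition, and it is given as a description. Pearson's r was 0.12 over the 179 pairs whose exons overlap in GENCODE 29. It was 0.52 over the 33 in which the gene bodies overlap and the exons do not. Over the 53 that start within 1 kb of each other without overlap it was 0.26. Spearman's rho was 0.10, 0.37 and 0.12 in the same order, and Pearson's r after GC correction 0.15, 0.47 and 0.15. Whether the layouts differ was not tested. GC content of the partners also went together, at r = 0.53 over 268 pairs.

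**Figure D4:**
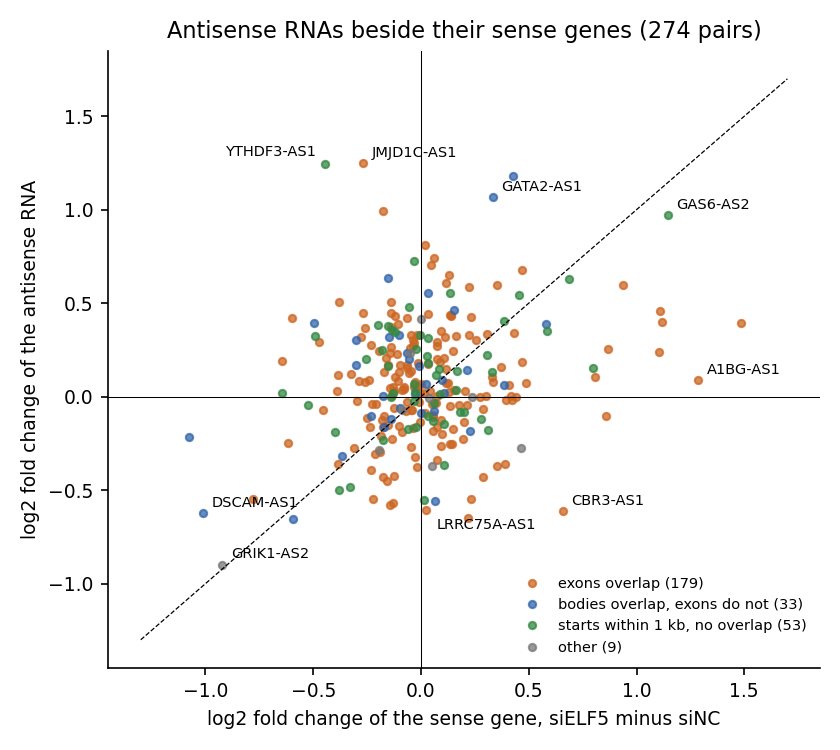
Log2 fold change of the antisense RNA (vertical) against that of its sense gene (horizontal), siELF5 minus siNC, for 274 pairs coloured by their layout in GENCODE 29, with equal change on the dashed line. Most pairs lie near the centre, DSCAM-AS1, GRIK1-AS2 and GAS6-AS2 near the line, and YTHDF3-AS1, JMJD1C-AS1 and CBR3-AS1 in the quadrants of opposite change.

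Antisense RNAs had fewer reads than their sense genes in most pairs. The median antisense RNA had 7.95% of the reads of its sense gene, and 16.1% per kilobase of the GENCODE 29 transcript model over 268 pairs with a length for both. The antisense RNA was above the sense gene in 34 pairs by reads and in 49 of 268 per kilobase. The ratio of antisense to sense reads, as log2 with 1 added to each, did not overlap between groups in 116 pairs, 71 higher and 45 lower in siELF5 (42.3%), against 36.1% of all 446 pairs in which both partners had a mean of at least 10. Those 446 include the member pairs, and in the others the antisense RNA had a mean under 50. The ratio changed by at least 2-fold in 7 member pairs and in 29 of the 446.

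Of pairs that moved apart, YTHDF3-AS1 changed most. YTHDF3, a reader of m6A-marked RNA, had 15271, 15532 and 15020.4 reads in siNC and 11199, 11169 and 11249.8 in siELF5 (log2 fold change -0.45, SE 0.0296, adjusted p = 1.42e-07), while YTHDF3-AS1 rose, so the log2 ratio of antisense to sense was higher by 1.69. The 2 start within 1 kb of each other without overlap. JMJD1C, a member of the histone demethylase family, had 11228, 10942 and 10863 reads in siNC and 9203, 9046 and 9159 in siELF5 (log2 fold change -0.27, SE 0.031, adjusted p = 1.78e-05), and the ratio of JMJD1C-AS1 to it was higher by 1.52, while 29% of the antisense exon bases lie across from exons of JMJD1C. DICER1, which cuts microRNA precursors, had 20474, 21119 and 20122 reads in siNC and 13405, 12977 and 14465 in siELF5 (log2 fold change -0.60, SE 0.0397, adjusted p = 1.51e-07), while DICER1-AS1 had 77, 85.8 and 105 in siNC and 118, 138 and 104 in siELF5 (log2 fold change 0.42, adjusted p = 0.0769), and the ratio was higher by 1.02. In these 3 pairs the ratios of the groups did not overlap. JMJD1C did not pass with the GC score, at -0.20 (adjusted p = 0.168). The pairs of DICER1, A1BG, VPS9D1, SRP14 and NUP50 were chosen after their values were seen.

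In the other direction, CBR3, a carbonyl reductase, had 391, 387 and 383 reads in siNC and 633, 636 and 569 in siELF5 (log2 fold change 0.66, SE 0.0839, adjusted p = 4e-05), while CBR3-AS1 fell, and the log2 ratio changed by -1.27. CBR3-AS1 had more reads than CBR3 in every siNC library and fewer in every siELF5 library. A1BG, a plasma glycoprotein, had 122, 139 and 146 reads in siNC and 331, 396 and 277 in siELF5 (log2 fold change 1.29, SE 0.147, adjusted p = 1.62e-05), A1BG-AS1 had 140.3, 156 and 157 in siNC and 162, 147 and 174 in siELF5 (log2 fold change 0.09, adjusted p = 0.626), and the ratio changed by -1.20. VPS9D1-AS1 had 939, 1179.6 and 1139 reads in siNC and 809, 780.1 and 819.5 in siELF5 (log2 fold change -0.43, adjusted p = 0.00106) and VPS9D1 685, 705 and 736 in siNC and 759.8, 902 and 943 in siELF5 (log2 fold change 0.29, SE 0.0853, adjusted p = 0.0144). CBR3 did not pass with the GC score, at 0.68 (adjusted p = 0.0839). After GC correction VPS9D1 was at 0.01 and VPS9D1-AS1 at -0.76.

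Opposite calls were also made for pairs whose RNAs start beside each other. SRP14-AS1, whose promoter is printed above, had 337, 315 and 299 reads in siNC and 369, 409 and 464 in siELF5 (log2 fold change 0.38, adjusted p = 0.0115), while SRP14, a subunit of the signal recognition particle, had 23934, 24191 and 23394 in siNC and 21793, 22160.0 and 20339.8 in siELF5 (log2 fold change -0.15, SE 0.0351, adjusted p = 0.00295). Beside JHDM1D-AS1, whose values are given above, the demethylase gene KDM7A (once JHDM1D) had 7456, 7171 and 6827 reads in siNC and 4872, 5482 and 5266 in siELF5 (log2 fold change -0.46, adjusted p = 7.83e-06). It was not among the 274 pairs, which were matched by symbol, and was chosen after its values were seen. The same directions were called for NUP50-AS1 (log2 fold change 0.36, adjusted p = 0.0122) and NUP50 (log2 fold change -0.13, adjusted p = 0.00407). SRP14-AS1 and NUP50-AS1 did not pass with the GC score in the fit, at log2 fold changes of 0.63 and 0.74 and adjusted p of 0.204 and 0.0896. Of the 53 member pairs with starts within 1 kb and no overlap, 5 were called higher in both partners, none lower in both, 4 with the antisense RNA higher and the sense gene lower, and 1 the reverse. Over all 274 member pairs these counts were 17, 10, 13 and 6, and whether this layout differs was not tested. RefSeq now names 44 of the antisense members as divergent transcripts (-DT), a group chosen after its values were seen; 13 of them were higher, 1 was lower and 30 did not pass, and their median log2 fold change was 0.14. The share called was 31.8%, against 27.2% of all antisense members and 52.2% of genes at that level. Of 8 LINC members with such a name, none passed the test in either direction, against 34.9% of all LINC members called.

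Other pairs moved together. DSCAM, a cell adhesion molecule, had 2080.2, 2114 and 2203 reads in siNC and 1041, 999.9 and 1139 in siELF5 (log2 fold change -1.01, SE 0.0603, adjusted p = 6.36e-08), and its gene body overlaps that of DSCAM-AS1 while their exons do not. DSCAM-AS1 had 541% of the reads of DSCAM, not corrected for length. GRIK1 had 437, 484 and 469 reads in siNC and 217, 247 and 270.1 in siELF5 (log2 fold change -0.92, SE 0.108, adjusted p = 2.07e-05), and the ratio of GRIK1-AS2 to it overlapped between groups. GAS6 had 1569.6, 1750.4 and 1906 reads in siNC and 3763, 3877 and 3892 in siELF5 (log2 fold change 1.15, SE 0.0621, adjusted p = 2.82e-08), and GAS6-AS2, which starts within 1 kb and runs the other way, 168, 184 and 196 in siNC and 338, 384 and 355 in siELF5 (log2 fold change 0.97, SE 0.114, adjusted p = 2.08e-05). PDZRN3, an E3 ubiquitin ligase, fell by 0.60 on the log2 scale (adjusted p = 5.57e-05) and PDZRN3-AS1 as given above. GAS6-AS2 did not pass with the GC score, at 0.61 (adjusted p = 0.253).

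At the GATA genes the antisense RNA had the larger fold change. GATA2, a zinc finger factor, had 994, 1009.9 and 1059.7 reads in siNC and 1338, 1271 and 1255 in siELF5 (log2 fold change 0.33, SE 0.0595, adjusted p = 0.000521), and the log2 ratio was higher by 0.73 in siELF5. GATA3 had 42425, 46490.4 and 48707 reads in siNC and 51004, 53346 and 48367 in siELF5 with overlapping groups (log2 fold change 0.15, SE 0.0476, adjusted p = 0.0194), and the ratio was higher by 0.31 with no overlap. GATA3 did not pass when siNC replicate 1 was left out (log2 fold change 0.10), nor when siELF5 replicate 1 (0.15) or siELF5 replicate 2 (0.12) was, at adjusted p of 0.0626, 0.0562 and 0.0937. With the score as a covariate its log2 fold change was -0.16, and that of GATA2 0.22 (adjusted p = 0.477). TBX2 was at 0.43 (adjusted p = 0.0104), and at -0.18 with the GC score. FAM83H was at 0.58 (adjusted p = 2.27e-05) with 66.3% GC, and at 0.02 after GC correction (adjusted p = 0.70). The score gave FAM83H 0.15 (adjusted p = 0.499). Sense genes that did not pass beside a called antisense RNA included LRRC75A (log2 fold change 0.02), LPP (0.02), FGD5 (0.22) and TMPO (0.08), of which FGD5 and TMPO passed after GC correction (0.24 and 0.11, adjusted p = 0.0212 and 0.0016), while OIP5 rose by 0.42 (adjusted p = 1.75e-05).

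**Figure D5:**
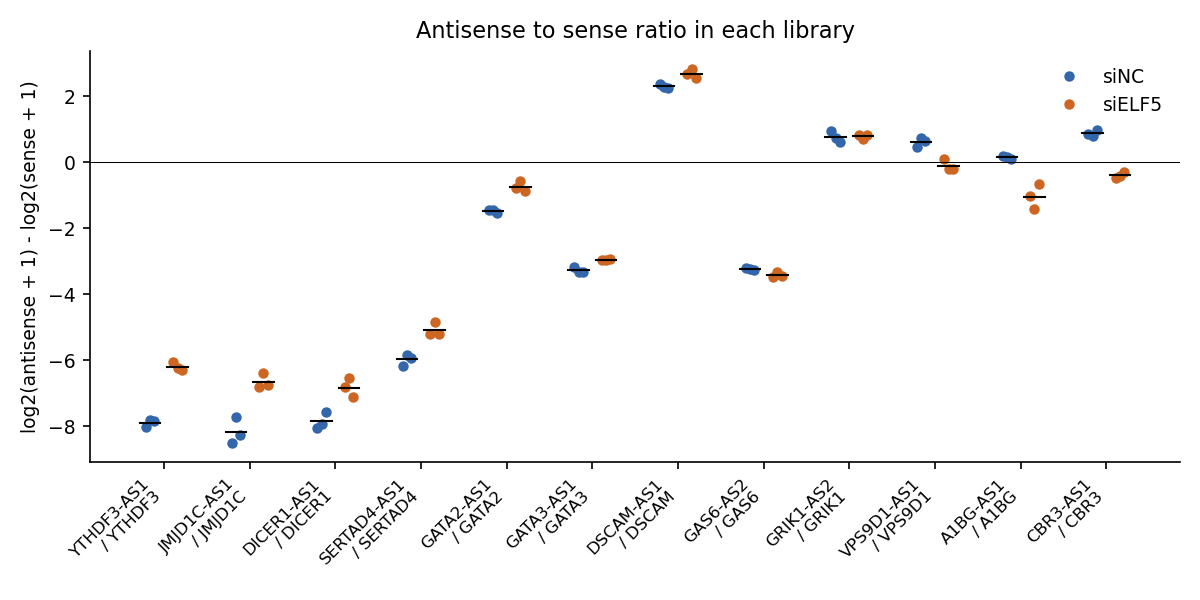
Log2 ratio of antisense to sense normalised reads (1 added to each) in each library for 12 pairs, with siNC in blue, siELF5 in orange and the mean as a bar. The mean ratio of YTHDF3-AS1 is -7.89 in siNC and -6.20 in siELF5, that of CBR3-AS1 0.87 and -0.40, and that of GRIK1-AS2 overlaps between groups.

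In GENCODE 29, 69 LINC RNAs shared no exon base with another gene (14 higher, 7 lower) and 49 shared some (5 higher, 14 lower). Of the antisense RNAs, 69 shared none (15 higher, 4 lower) and 212 shared some (35 higher, 21 lower). The shares called were 30.4% and 38.8% of these LINC RNAs and 27.5% and 26.4% of these antisense RNAs, against 52.2% of all genes at that level. Of members without overlap, LINC01016, LINC00641, GATA2-AS1 and DSCAM-AS1 were described above. Their exons share no base with exons of another gene in that annotation, which is not the one the reads were counted on. The body of DSCAM-AS1 overlaps that of DSCAM, and without strand, reads from introns of DSCAM cannot be told apart there.

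RefSeq lists 9 of the LINC and 5 of the antisense symbols as coding genes today, and those named here were chosen after their values were seen, except LINC00094. LINC01420, now NBDY, a microprotein of P-bodies where messenger RNAs are decapped, had 2963, 3035 and 2843 reads in siNC and 2413, 2494 and 2182 in siELF5 (log2 fold change -0.32, SE 0.0546, adjusted p = 0.000389). LINC00493, now SMIM26, a small protein of mitochondria, had 2361, 2503 and 2553 reads in siNC and 1896, 2027 and 1863 in siELF5 (log2 fold change -0.36, SE 0.0519, adjusted p = 0.000112), and -0.55 (adjusted p = 0.00929) with the GC score. LINC00094 (BRD3OS) had 3592, 3471 and 3307 reads in siNC and 2944, 2969 and 2951 in siELF5 (log2 fold change -0.23, adjusted p = 0.000917). All 3 fell with no overlap between groups. LINC00116, now MTLN, a mitochondrial microprotein, had 200.1, 259 and 344 reads in siNC and 408, 342 and 420.0 in siELF5 (log2 fold change 0.57, adjusted p = 0.0131) with overlapping groups, and was at -0.42 with the GC score. LINC00998 (SMIM30) had 2959, 2699 and 2790.3 reads in siNC and 2588, 2865 and 2804 in siELF5 and did not pass (log2 fold change -0.03). LINC01420 and LINC00094 did not pass with the GC score in the fit, at log2 fold changes of -0.28 and -0.06 and adjusted p of 0.252 and 0.794.

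A pair of lists of genes around these RNAs were read from the same fit. Of 40 other long noncoding RNAs with names of their own (3 of them also members), 3 rose and 14 fell, so that 42.5% were called, against 47.1% of all genes tested. By direction, 7.5% were higher and 35.0% lower, against 23.8% and 23.3% of all genes tested. The median mean of this list was 1157 reads, and of all genes with 1000 reads or more 25.1% were higher and 33.2% lower. H19, the imprinted RNA, rose from 340.2 ± 35.5 to 911 ± 68.7 reads (SD, n = 3 each; log2 fold change 1.42, adjusted p = 1.81e-07). HOTAIR (log2 fold change 0.36) and NEAT1, the scaffold of paraspeckles (0.33), were the other 2. HOTAIR and NEAT1 did not pass with the GC score in the fit, at log2 fold changes of 0.34 and 0.33 and adjusted p of 0.161 and 0.178. Those that fell included the small nucleolar RNA hosts SNHG16 (log2 fold change -0.40, adjusted p = 3.90e-07), GAS5 (-0.39), ZFAS1 (-0.50) and DANCR (-0.51). Of all 18 genes with an SNHG symbol, a group chosen after values were seen, 2 were higher, 8 lower and 8 not past. This is 55.6% called and 44.4% lower, against 47.1% and 23.3% of all genes tested. The median mean of the SNHG genes was 1009 reads, and at 1000 reads or more 58.3% of all genes were called and 33.2% were lower. MALAT1 did not pass (-0.04, adjusted p = 0.684). The median log2 fold change of the 40 was -0.12.

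Of 36 genes of nuclear RNA decay and transcription termination, which limit how much antisense and intergenic RNA is left in the nucleus, 7 rose and 10 fell, and the middle log2 fold change was -0.06. This is 47.2% of the list, and 47.1% of all genes tested were called. NCBP2, the small subunit of the nuclear cap-binding complex, fell from 28664 ± 414 to 19918 ± 581 reads (SD, n = 3 each; log2 fold change -0.53, adjusted p = 5.34e-08). Its divergent partner NCBP2-AS2, a member and listed as coding today, had 2580.4, 2491 and 2516 reads in siNC and 2540.2, 2582 and 2253 in siELF5 (log2 fold change -0.04, adjusted p = 0.552). PABPN1, the nuclear poly(A) binding protein, had 110.4, 157 and 152 reads in siNC and 844, 817 and 533 in siELF5 (log2 fold change 2.37, adjusted p = 4.36e-07). It shares sequence with the read-through gene BCL2L2-PABPN1, which is listed at 0 in all libraries, so the value of PABPN1 is uncertain.

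GC content and the calls of the members went together in part. Of LINC and antisense RNAs with at least 55% GC, 22 of 84 were higher and 7 lower, and of those under 45% GC, 12 of 132 were higher and 22 lower. Over all genes with a mean of at least 50 the counts were 1720 higher and 604 lower of 3941 in the first class, and 873 and 1583 of 5064 in the second. After GC correction the members with at least 55% GC had 11 higher and 12 lower, and those under 45% 23 higher and 20 lower. Over all genes with a mean of at least 50 the corrected counts also evened out. They were 1077 higher and 1143 lower of 3941 in the first class, and 1250 and 1377 of 5064 in the second. Of the 129 LINC RNAs, 41 in the authors' deposited table were past the same threshold (19 higher and 22 lower), 40 of them shared with the calls above. Of the 287 antisense RNAs, 62 were (40 higher and 22 lower), all 62 shared. Both sets of calls rest on the same 6 libraries, so the sharing is no independent evidence. The share called over all genes in that table was not taken. DESeq2 run again on the whole reads called 3670 of 16032 genes higher and 3622 lower.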

How the data were processed

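RNA-seq of 6 T47D libraries was used, 3 siNC and 3 siELF5. Per the submitters' processing notes, STAR 2.6, featureCounts 1.6.3 (Subread), DESeq2 1.22.1 and the build hg19 were used. Their roles, the strand setting and the handling of overlapping genes were not given in the sources used here. From the authors came 1 deposited table of normalised values (a signal, the gene counts over each library's size factor) with their mean, and per the file headers also log2 fold changes and their SE, a test score, and p-values with adjusted p-values. All normalised values came out as whole reads (100% within 1e-06) once the size factors were recovered, and library depth was read from them. Columns named Control and ELF5KD were matched to the siNC and siELF5 titles.

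Values of genes with a mean of at least 10 (16032 of 26364) were tested as log2(value + 1) with limma 3.58.1 (R 4.3.3) with an intensity trend and Benjamini-Hochberg adjustment. The test was tried on simulated data. GC content, length and overlaps came from GENCODE 29, matched for 96.1% of the genes tested, and members without a match had no GC correction. Names and promoters came from RefSeq (GRCh38.p14), and no coordinates were converted. Alternatives were edgeR 4.0.16 and DESeq2 1.42.0 on the whole reads, other pseudocounts, filters, scalings and GC corrections, a replicate block, and leaving out each library. The members and gene lists were chosen with earlier results of these data known. Named genes were, for LINC and antisense RNAs separately, the 8 largest increases and 8 largest decreases past the threshold with groups apart, the 5 with the most reads, those beside the level threshold, a list with known roles, sense genes of those named, the smallest adjusted p in each direction of each list, and ELF5.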

Additional observations from a re-analysis of the deposited data

How the results depend on the processing

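Quantile scaling gave 13 LINC RNAs higher and 27 antisense RNAs higher and 49 lower, with median log2 fold changes of -0.0869 for LINC and -0.0585 for antisense RNAs. Equal column totals gave an antisense median of 0.10. Over all genes, quantile scaling gave 3459 higher and 3984 lower, and equal column totals 4380 and 3132. These scalings moved the median over all genes by -0.03 and 0.03. When the GC score entered the fit, 1 LINC RNA was higher and 6 lower, 7 antisense RNAs higher and 4 lower, and 521 of all genes higher and 645 lower, with a LINC median of -0.0429; GATA3 (-0.16), LINC00176 (-0.25), PDZRN3-AS1 (0.0707) and TBX2 (-0.18) changed sign. The cause was not tested. Among members with a mean of at least 100 the LINC median was -0.003.

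With each library left out in turn, 14 to 23 LINC RNAs were higher and 17 to 26 lower, and 32 to 44 antisense RNAs higher and 19 to 27 lower. The medians ranged from 0.01 to 0.06 and from 0.05 to 0.08, over all genes 3143 to 3742 were higher and 2944 to 3601 lower, and the ratio groups were apart in 47.4% to 55.5% of pairs, where fewer libraries overlap less often. edgeR on the whole reads called 3820 genes higher and 3758 lower, with 22 and 24 LINC and 51 and 27 antisense RNAs. DESeq2 called 3670 and 3622 genes. Of 73 named genes, all 73 kept direction and side of the threshold with edgeR and 72 with DESeq2.

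Libraries with the same replicate number did not deviate together (correlations of 0.0146, -0.0345 and -0.0560 over genes), so the numbers were not taken as pairs. With the replicate block, 22 LINC RNAs were higher and 23 lower, 45 antisense RNAs higher and 24 lower, and of all genes 3641 higher and 3533 lower. ZNF341-AS1 was the 1 named gene that lost its call (adjusted p = 0.0693). At 50 to under 200 reads the median SE was 0.181 over the members and 0.195 over all genes in that range. The shares called there were 18.6% and 31.5%, and the part of precision in them was not tested.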
